A study of Mus musculus with 12 samples.

Results

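The nuclear genes for the proteins of the mitochondrial ribosome were examined in maps of R-loops from mouse HEPA1-6 cells and mouse liver. They were taken by symbol, as the protein-coding RefSeq genes of assembly GRCm38.p6 whose symbol is Mrpl or Mrps followed by a digit. This gave 78 of 21887 protein-coding genes, 49 for the large subunit (Mrpl) and 29 for the small subunit (Mrps). A gene was counted as holding a peak when its body, with 1 kb added on both sides, overlapped an interval of a peak list by at least 1 bp. The series comprises 12 libraries in 6 groups of 2. For each source these are input DNA, an S9.6 immunoprecipitate, and an S9.6 immunoprecipitate with RNase H1, the enzyme that degrades the RNA of a hybrid. HEPA1-6 is a mouse hepatoma line, the liver came from C57/Bl6 mice whose age the labels do not give, and all groups are labelled wild type and untreated. The data were 1 peak list per source, 28717 peaks for HEPA1-6 and 14908 for liver, each called on a merged immunoprecipitate against input according to the peak names.

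R-loops are structures in which RNA pairs with one DNA strand and displaces the other, and S9.6 is an antibody that binds RNA-DNA hybrids. They form mainly where RNA is being transcribed, often near the starts and ends of active genes. The mitochondrial ribosome translates the few proteins that mitochondrial DNA encodes, all of them parts of the respiratory chain and ATP synthase. Its RNAs come from the mitochondrial genome, whereas all of its proteins are encoded in the nucleus, made in the cytosol and imported. Some have bacterial counterparts, and others are found only in mitochondria. Liver is rich in mitochondria.

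The labelled source of the liver list was checked against marker genes. Of 14 hepatocyte markers, 3 held a HEPA1-6 peak (21.4%, 7.57 to 47.6) and 2 a liver peak (14.3%, 4.01 to 39.9). Both intervals include the share of all protein-coding genes, which was 42.0% in HEPA1-6 and 29.7% in the liver list. All 7 markers of dividing cells held a peak in both lists (100%, 64.6 to 100 in each). None of the markers of leukocytes (4), endothelium (4), stellate cells (3) or cholangiocytes (3) held a peak in either list. In sets of 4 and 3 genes the upper limits for a count of 0 are 49.0% and 56.1%. Both lie above the shares of all protein-coding genes, so these counts of 0 cannot set the markers apart from other genes. An R-loop peak is not a measure of expression, and the list is called liver-labelled below. The lists have no replicates, and no difference between the sources was tested. The sequencing depth behind the lists is unknown, and the HEPA1-6 list is the longer one. Intervals in brackets are 95% Wilson intervals over genes or peaks and cover counting error only.

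Most mitochondrial ribosomal protein genes held a HEPA1-6 peak, and fewer held a liver-labelled one. In HEPA1-6, 62 of 78 did, or 79.5% (69.2 to 87.0), where 42.0% of all protein-coding genes did. In the liver-labelled list, 33 of 78 did, or 42.3% (32.0 to 53.4), against 29.7% of all protein-coding genes. Every one of these 33 genes was among the 62, so 33 held a peak in both lists (27.8% of all protein-coding genes did) and 29, or 37.2%, in HEPA1-6 only (14.2%). Liver-labelled peaks without a HEPA1-6 peak at the same gene were found at 0 members (1.89% of all protein-coding genes). Taking 3 as the upper limit for a count of 0, the share of 78 could be up to 3.85%, which is not a Wilson limit. That 0 depends on the setting. With the HEPA1-6 list shortened by score to the length of the other it was 3 members (Mrpl32, Mrpl37 and Mrps12, against 3.67% of all genes), and counting peaks by their midpoint it was 6 (against 2.93%). The other 16 members, 20.5%, held no peak in either list (56.1%). Among members with a HEPA1-6 peak, 53.2% (41.0 to 65.1) also held a liver-labelled one, and among all protein-coding genes the share was 66.1%.

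**Figure D1:**
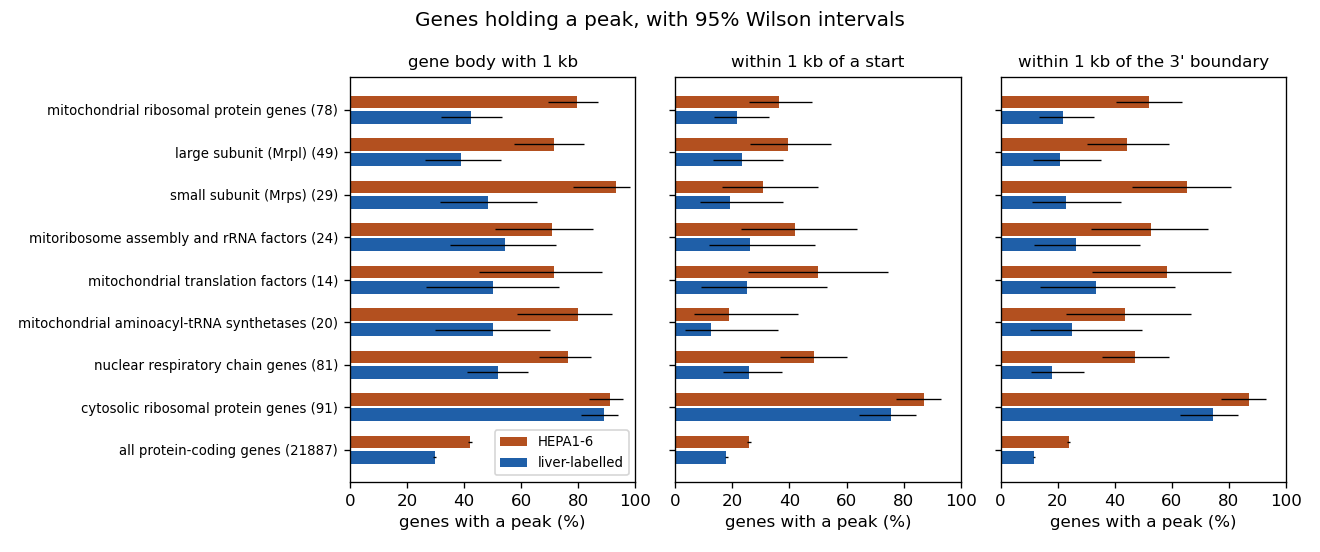
Share of genes with a peak (%, x axis) in the HEPA1-6 list (brown) and the liver-labelled list (blue), by gene group with its number of genes, for the gene body with 1 kb on both sides, within 1 kb of a listed start, and within 1 kb of the 3′ boundary. Bars start at 0 and lines are 95% Wilson intervals over genes; the panels for starts and ends use only genes with a listed start. Mitochondrial ribosomal protein genes reach 79.5% and 42.3% in the left panel, between all protein-coding genes (42.0% and 29.7%) and cytosolic ribosomal protein genes (91.2% and 89.0%).

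Promoter sequence could be set beside the peaks for 69 of the 78 members, those with a start in the RefSeq promoter table of GRCm38.p6. The other 9 are Mrpl4, Mrpl13, Mrpl15, Mrpl19, Mrpl38, Mrpl54, Mrps28, Mrps34 and Mrps35. The 250 bases before the start are shown for 4 genes because these cover the kinds of pattern seen at starts, and they were chosen after the values were seen. Mrpl12 (chr11:120484387-120484636, plus strand) encodes a stalk protein that recruits translation factors, and peaks of both lists run across its start. Mrps14 (chr1:160194965-160195214, plus strand) encodes a small-subunit protein with a bacterial counterpart, and all of the stretch shown lies inside a peak in both lists. Mrpl17 (chr7:105811088-105811337, minus strand) encodes a large-subunit protein, and its peaks begin 379 bp past the start. Mrpl10 (chr11:97041332-97041581, plus strand) encodes the protein that anchors the stalk, and it has no peak within 1 kb of its start in either list. Capitals mark matches, on either strand, to short motifs: CGCATGCG, the core bound by NRF1, a regulator of nuclear genes for mitochondria, CCGGAAG for ETS factors such as GABPA, AAGATGGCG for YY1, and GGGCGG for Sp1. In Mrpl17 the first capitals are an Sp1 and an ETS match that share bases.
Mrpl12: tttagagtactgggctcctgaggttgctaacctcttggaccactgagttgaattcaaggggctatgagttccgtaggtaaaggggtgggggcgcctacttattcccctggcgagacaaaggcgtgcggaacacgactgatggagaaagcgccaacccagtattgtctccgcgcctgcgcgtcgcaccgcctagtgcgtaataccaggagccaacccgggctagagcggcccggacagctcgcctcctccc
Mrps14: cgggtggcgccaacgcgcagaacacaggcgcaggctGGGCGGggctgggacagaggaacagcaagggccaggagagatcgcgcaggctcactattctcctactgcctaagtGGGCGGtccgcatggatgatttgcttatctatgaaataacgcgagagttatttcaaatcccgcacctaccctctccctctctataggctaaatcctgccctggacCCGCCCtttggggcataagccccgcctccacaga
Mrpl17: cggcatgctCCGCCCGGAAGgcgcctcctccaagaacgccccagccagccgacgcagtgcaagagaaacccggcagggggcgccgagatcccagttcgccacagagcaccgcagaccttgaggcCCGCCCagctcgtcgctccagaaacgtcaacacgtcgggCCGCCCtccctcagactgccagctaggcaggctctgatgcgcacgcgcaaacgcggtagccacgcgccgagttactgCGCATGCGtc
Mrpl10: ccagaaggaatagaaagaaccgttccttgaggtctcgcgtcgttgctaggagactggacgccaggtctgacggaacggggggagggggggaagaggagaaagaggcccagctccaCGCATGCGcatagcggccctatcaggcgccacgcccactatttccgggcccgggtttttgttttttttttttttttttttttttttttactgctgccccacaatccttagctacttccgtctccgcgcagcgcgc

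Over the 300 bases from 250 before to 50 after the start, the NRF1 letters occurred in 7 of 69 members (10.1%, against 2.55% of 17492 protein-coding genes with a listed start). The ETS letters occurred in 24 (34.8% against 11.9%) and the YY1 letters in 8 (11.6% against 1.92%). Like groups of genes had raised shares too, except for the NRF1 letters in genes for cytosolic ribosomal proteins. In 66 nuclear genes of the respiratory chain the NRF1, ETS and YY1 shares were 12.1%, 24.2% and 9.09%. In 70 genes for cytosolic ribosomal proteins they were 2.86%, 35.7% and 5.71%. The Sp1 letters occurred in 34, a share close to that of all genes (49.3% against 46.3%). Median GC content was 58.3% in members and 56.3% in all genes, and the median ratio of observed to expected CpG was 0.818 and 0.577. That ratio was 0.825 in the respiratory chain genes and 0.855 in the cytosolic ribosomal protein genes. A run of 4 G on the coding strand was present in 69.6% of members and 71.0% of all genes. These matches describe the letters in the window and are not evidence that a factor binds there.

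The members with YY1 letters were Mrpl35, Mrpl36, Mrpl37, Mrpl42, Mrps11, Mrps18a, Mrps24 and Mrps27. None of these 8 had a peak within 1 kb of its start in either list, whereas 25 of the 61 other members had a HEPA1-6 start peak and 15 a liver-labelled one. Over all protein-coding genes with YY1 letters the direction was the other way. Of 335 such genes, 53.4% had a HEPA1-6 start peak and 35.5% a liver-labelled one, against 25.3% and 17.6% of genes without them. Of the 7 members with NRF1 letters (Mrpl9, Mrpl10, Mrpl17, Mrpl22, Mrpl32, Mrpl39 and Mrps18b), 4 had a HEPA1-6 start peak and 3 a liver-labelled one, where 41.7% and 24.9% of all genes with these letters did. Of the 24 with ETS letters, 10 and 7 did, near the 44.9% and 28.7% of all genes with them. Motif counts of this size in 69 genes were not tested.

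R-loops are known to form where the RNA-like strand is rich in G over C, so GC skew, the excess of G over C divided by their sum, was read in the 50 bases after the start. Its median was 0.0714 in members and 0.0667 in all genes. The 25 members with a HEPA1-6 start peak had a median skew of 0.00 and the 44 without had 0.0973. Among all protein-coding genes the medians were 0.0952 with and 0.0588 without such a peak, the opposite order. A positive skew was present in 11 of the 25 members with a start peak and 31 of the 44 without. The window holds 50 bases, and this difference was not tested.

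Within 1 kb of a start, 25 of 69 members held a HEPA1-6 peak (36.2%, 25.9 to 48.0), against 25.9% of all protein-coding genes with a listed start. In the liver-labelled list 15 of 69 did (21.7%, 13.6 to 32.8), near the 17.9% of all such genes. Within 1 kb of the 3′ boundary the HEPA1-6 count was 36 of 69 (52.2%, 40.6 to 63.5) against 23.8%, and the liver-labelled count 15 of 69 (21.7%) against 11.8%. In HEPA1-6, 19 members had a peak at the end and none at the start, 8 the reverse, and 17 had both. In the liver-labelled list these numbers were 6, 6 and 9. HEPA1-6 peaks at these genes thus lay more often at the end window than at the start window, and liver-labelled peaks equally often at each. The joint counts of both windows are not given here for all genes. Members are shorter than most genes, and the shares at starts and ends were not split by length. In the shortest members, such as Mrpl53, the start and end windows overlap.

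A start peak in both lists was present at 14 of the 69 members, a count not given here for all genes. They were Mrpl12, Mrpl17, Mrpl18, Mrpl23, Mrpl24, Mrpl27, Mrpl32, Mrpl43, Mrpl49, Mrpl53, Mrps2, Mrps14, Mrps15 and Mrps18b. Mrps12, whose protein sits at the decoding centre, was the only member with a liver-labelled start peak and no HEPA1-6 one. Its liver-labelled peak (score 15) lay over the start it shares with the divergent gene Sars2, a mitochondrial seryl-tRNA synthetase. Its HEPA1-6 peak (score 14) lay at the other end of the gene and did not overlap it. Another gene with a listed start, not always a protein-coding one, starts within 1 kb on the opposite strand at 26 of the 69 members. Of these 26 members, 12 had a HEPA1-6 start peak and 7 a liver-labelled one, against 13 and 8 of the 43 members without a divergent start. The same split is not given here for all genes.

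**Figure D2:**
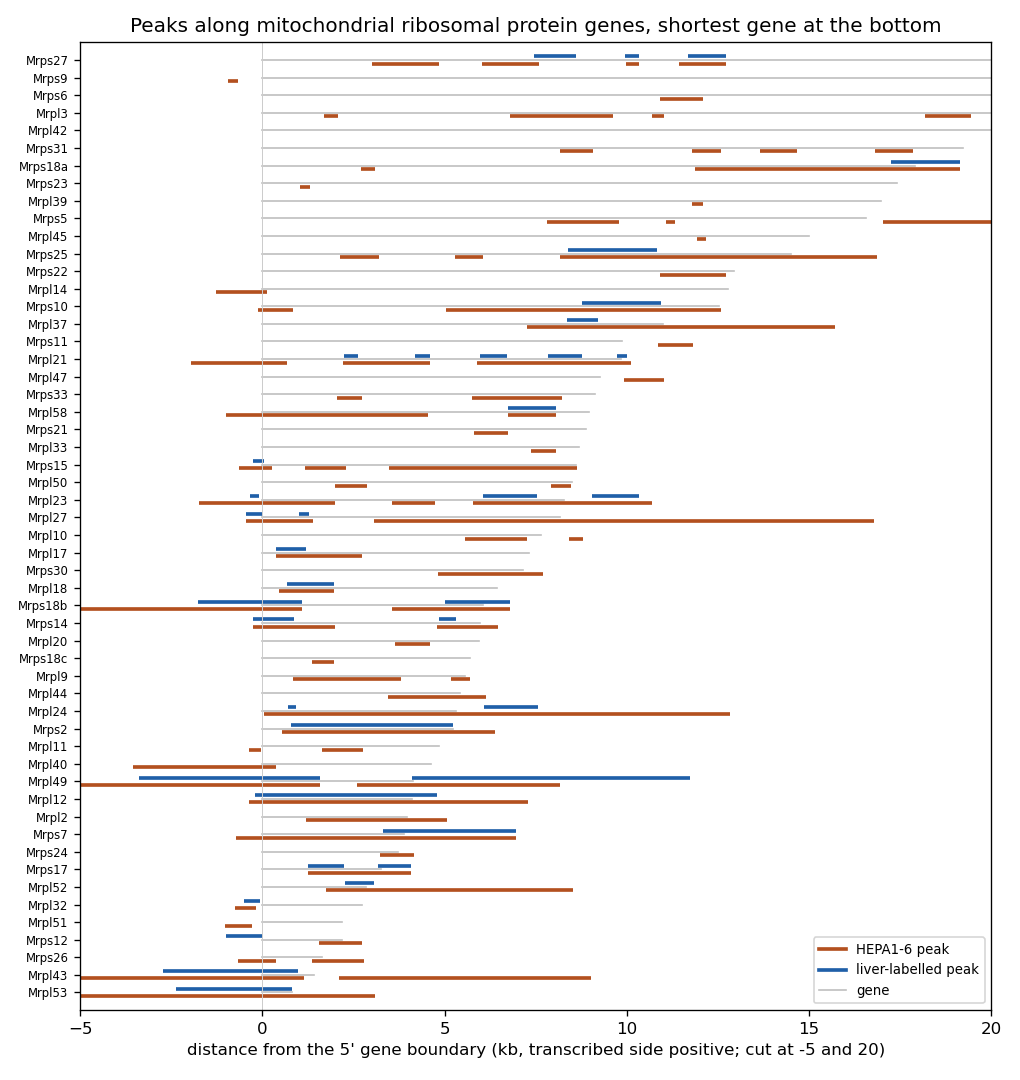
Position of every peak along the 54 members with a listed start and a HEPA1-6 peak, as distance from the 5′ gene boundary (kb, x axis, transcribed side positive, cut at -5 and 20), 1 row per gene with the shortest at the bottom. Grey lines are genes, brown lines HEPA1-6 peaks and blue lines liver-labelled peaks. In short genes such as Mrpl12 and Mrpl53 a peak spans the gene, whereas in long ones such as Mrps27 and Mrps31 several peaks lie inside it.

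Coverage was also read at single positions around the start. HEPA1-6 peaks covered the start itself in 26.1% of members, the position 2 kb downstream in 26.1% and the position 4 kb downstream in 29.0%, with a low of 18.8% in between. In all protein-coding genes these shares were 18.2%, 12.5% and 10.4%. At 5 kb upstream the shares were 17.4% of members and 5.26% of all genes. Liver-labelled peaks covered the start in 14.5% of members and the position 2 kb downstream in 4.35%, against 11.1% and 5.56% of all genes. Members are short, so positions several kb away from a start can lie beyond the gene or in a neighbour.

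**Figure D3:**
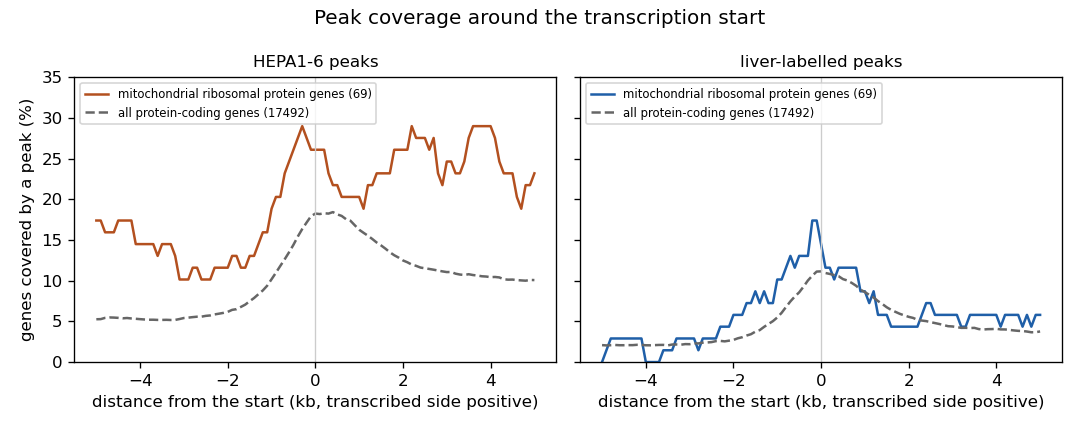
Share of genes whose position lies inside a peak (%, y axis) by distance from the outermost listed start (kb, x axis, transcribed side positive), for members (69) and all protein-coding genes with a listed start (17492), in each list. For HEPA1-6 the members' line moves unevenly between 18.8% and 29.0% from the start to 4 kb into the gene and lies above that of all genes, which falls from 18.2% to 10.4%. For the liver-labelled list both lines are highest near the start.

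Members were shorter than most genes, with a median length of 7690.5 bp against 17169 bp. Across all genes the shortest held a peak least often, so shares were read by length. Of the 25 members of up to 5 kb, 17 held a HEPA1-6 peak (68.0%, against 22.5% of all genes of that length) and 11 a liver-labelled one (44.0% against 16.5%). Of the 30 members of 5 to 10 kb, 25 (83.3% against 43.3%) and 13 (43.3% against 30.8%) did. Of the 13 of 10 to 20 kb, 12 (92.3% against 49.0%) and 5 (38.5% against 33.2%) did. All 4 members of 20 to 50 kb held a HEPA1-6 peak, and 2 of the 4 a liver-labelled one. Of the 6 over 50 kb, 4 (66.7% against 47.3%) and 2 (33.3% against 35.2%) did. In HEPA1-6 the members' share was above that of all genes in each class, and in the liver-labelled list in each class but the longest (33.3% against 35.2%).

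**Figure D4:**
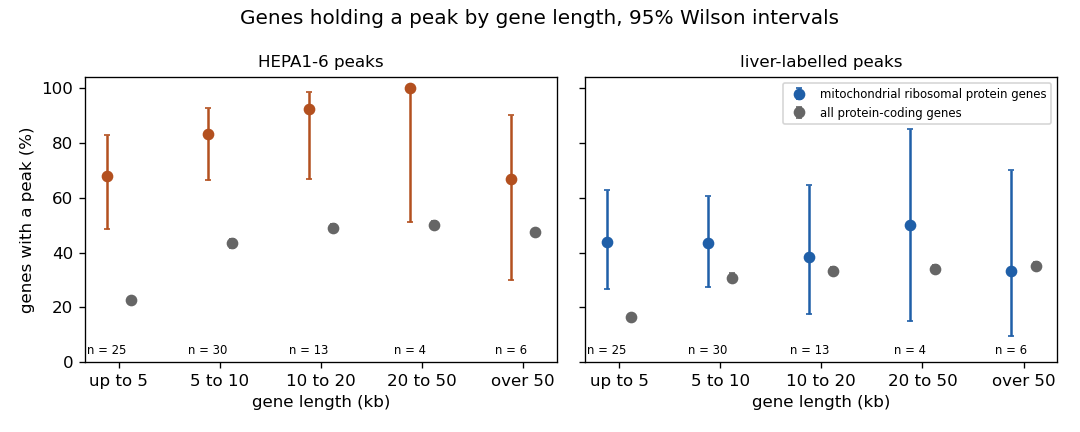
Share of genes with a peak (%, y axis) by gene length class (kb, x axis), with 95% Wilson intervals, for members (coloured, with their number) and all protein-coding genes (grey), in the HEPA1-6 list (left) and the liver-labelled list (right). In the shortest class 68.0% of members and 22.5% of all genes held a HEPA1-6 peak, and 44.0% and 16.5% a liver-labelled one.

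Members lay close to other genes more often than most. Another protein-coding gene was within 1 kb of 47 of the 78 (60.3%, against 31.6% of all protein-coding genes). Of these 47, 37 held a HEPA1-6 peak (78.7%, against 63.5% of all genes with such a neighbour) and 23 a liver-labelled one (48.9% against 45.3%). Of the 31 members with no such neighbour, 25 held a HEPA1-6 peak (80.6% against 32.0%) and 10 a liver-labelled one (32.3% against 22.4%). Counting only peaks that touch no other protein-coding gene, 38 members held a HEPA1-6 peak (48.7% against 32.1%) and 18 a liver-labelled one. The last share, 23.1%, was close to the 22.0% of all genes. The peak of a gene and that of its neighbour cannot be told apart where 1 peak covers both.

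Small-subunit genes held a HEPA1-6 peak in 27 of 29 cases (93.1%, 78.0 to 98.1) and large-subunit genes in 35 of 49 (71.4%, 57.6 to 82.2). In the liver-labelled list the counts were 14 of 29 (48.3%) and 19 of 49 (38.8%). Of the 16 members with no peak, 14 were large-subunit genes. Small-subunit genes were somewhat longer, with a median of 8881 bp against 7306 bp. Protein numbers up to L36 and S21 are those shared with bacteria. A split at these numbers, chosen after the values were seen, gave a HEPA1-6 peak in 34 of 44 members with such numbers (77.3%) and 28 of 34 with higher ones (82.4%).

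Other genes of mitochondrial translation were read from lists written with earlier results of these data known. Of 5 mitochondrial ribosome proteins named outside the symbol rule, all held a HEPA1-6 peak and 4 (Dap3, Ptcd3, Chchd1 and Gadd45gip1) also a liver-labelled one, which Aurkaip1 did not. Of 24 assembly and ribosomal RNA factors, 17 (70.8%) and 13 (54.2%) did. Those without a peak in either list were Gtpbp10, Ddx28, Noa1, Tfb1m, Mettl15, Mettl17 and Rpusd4. Of 14 translation factors, 10 and 7 held a peak, and of 20 mitochondrial aminoacyl-tRNA synthetases, 16 and 10. Of 81 nuclear genes of the respiratory chain, which has subunits made on the mitochondrial ribosome, 62 (76.5%) and 42 (51.9%) did. The Wilson intervals of each of these groups overlapped those of the members in both lists. Intervals of the small groups are wide, so their overlap cannot show that the shares are alike.

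Genes for ribosomal proteins of the cytosol held liver-labelled peaks at a higher share than those of the mitochondrial ribosome. Of 91 such genes, 83 (91.2%) held one in HEPA1-6, and the liver-labelled count was 81 (89.0%). Among those with a HEPA1-6 peak, 97.6% (91.6 to 99.3) also held a liver-labelled peak, against 53.2% of the mitochondrial ones. Start peaks were present at 61 of 70 cytosolic genes (87.1%) in HEPA1-6 and 53 (75.7%) in the other list. The cytosolic genes were shorter, with a median of 3175 bp. The difference between the groups was not tested.

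The lists gave 105 HEPA1-6 peaks and 54 liver-labelled peaks at members, and none lay at more than 1 member. In HEPA1-6, 36 members had 1 peak, 15 had 2 and 11 had 3 or more, and in the liver-labelled list 20, 9 and 4 did. Peak numbers per gene are not given here for all protein-coding genes. The authors' score per peak, whose scale is not stated, had a median of 24 at members in HEPA1-6 (range 10 to 182, all peaks 21) and 25 in the liver-labelled list (13 to 73, all peaks 22). Median widths were 1561 bp (all peaks 1091 bp) and 1044 bp (881 bp). The highest score per gene had a median of 30.5 over the 62 members and 34 over all protein-coding genes with a HEPA1-6 peak, and of 30 and 28 in the liver-labelled list. Median score and width at members were thus somewhat above those of all peaks in each list. The median highest score per gene was below that of all genes in HEPA1-6 and above it in the liver-labelled list.

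The highest HEPA1-6 score belonged to Mrps34 (chr17:24895120-24896289), a small-subunit protein found only in mitochondria. Its HEPA1-6 peak scored 182 and its liver-labelled peak 73, the highest of any member in each list. That HEPA1-6 peak is 13019 bp wide, lies at chr17:24885904-24898922 and also covers parts of Eme2, Mapk8ip3, Nme3, Nubp2 and Spsb3. The gene itself is 1170 bp long, so its height cannot be told apart from that of its neighbours. Mrps2 (chr2:28465951-28471177), a small-subunit protein with a bacterial counterpart, followed with 155 and 62. Its HEPA1-6 peak (chr2:28466474-28472336) carries the minus strand and its liver-labelled peak (chr2:28466722-28471188) the plus strand, that of the gene. Both peaks also lay within 1 kb of another protein-coding gene. Mrpl13 (chr15:55534095-55557312), a large-subunit protein with a bacterial counterpart, had 123 and 69.

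At Mrpl13 the leading peak, chr15:55556591-55557964, had the same first and last base in both lists and reached into the neighbouring gene Mtbp. It was given the minus strand in HEPA1-6 and the plus strand in the liver-labelled list. Mrpl13 held 3 HEPA1-6 and 5 liver-labelled peaks, and 2 of the latter overlapped no HEPA1-6 peak. Mrps28 (chr3:8802146-8923857), the longest member, had a single narrow peak in each list at its higher boundary, with scores of 106 and 60. Mrpl12 (chr11:120484637-120488754) scored 99 and 53. Its HEPA1-6 peak, chr11:120484274-120491929, and its liver-labelled peak, chr11:120484437-120489430, each cover the whole gene. Both also cover bases of the promoter printed above. The HEPA1-6 peak of Mrpl12 also overlaps the neighbour Slc25a10.

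The other members among the 10 highest HEPA1-6 scores were Mrpl49 (96, liver-labelled 33), Mrpl54 (96 and 41), Mrps18b (75 and 52), Mrpl17 (73 and 29) and Mrps17 (72 and 39). Mrpl53 (49, HEPA1-6 56) and Mrps14 (40, HEPA1-6 69) joined the liver-labelled top 10, and 8 members were in both. Not all of these scores can be assigned to the member. The HEPA1-6 peaks that scored 96 also overlap Syvn1 at Mrpl49, and Apba3 and Matk at Mrpl54. The HEPA1-6 peak of Mrps18b that scored 75 is on the opposite strand and also overlaps Ppp1r10. The peaks of Mrpl53 in both lists also overlap Ccdc142. Scores of different lists are not on a stated common scale. Over the 33 members with a peak in both lists Spearman's rho between highest scores was 0.843, and over 6077 protein-coding genes with a peak in both it was 0.702. The points share libraries within a list and no p is given.

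**Figure D5:**
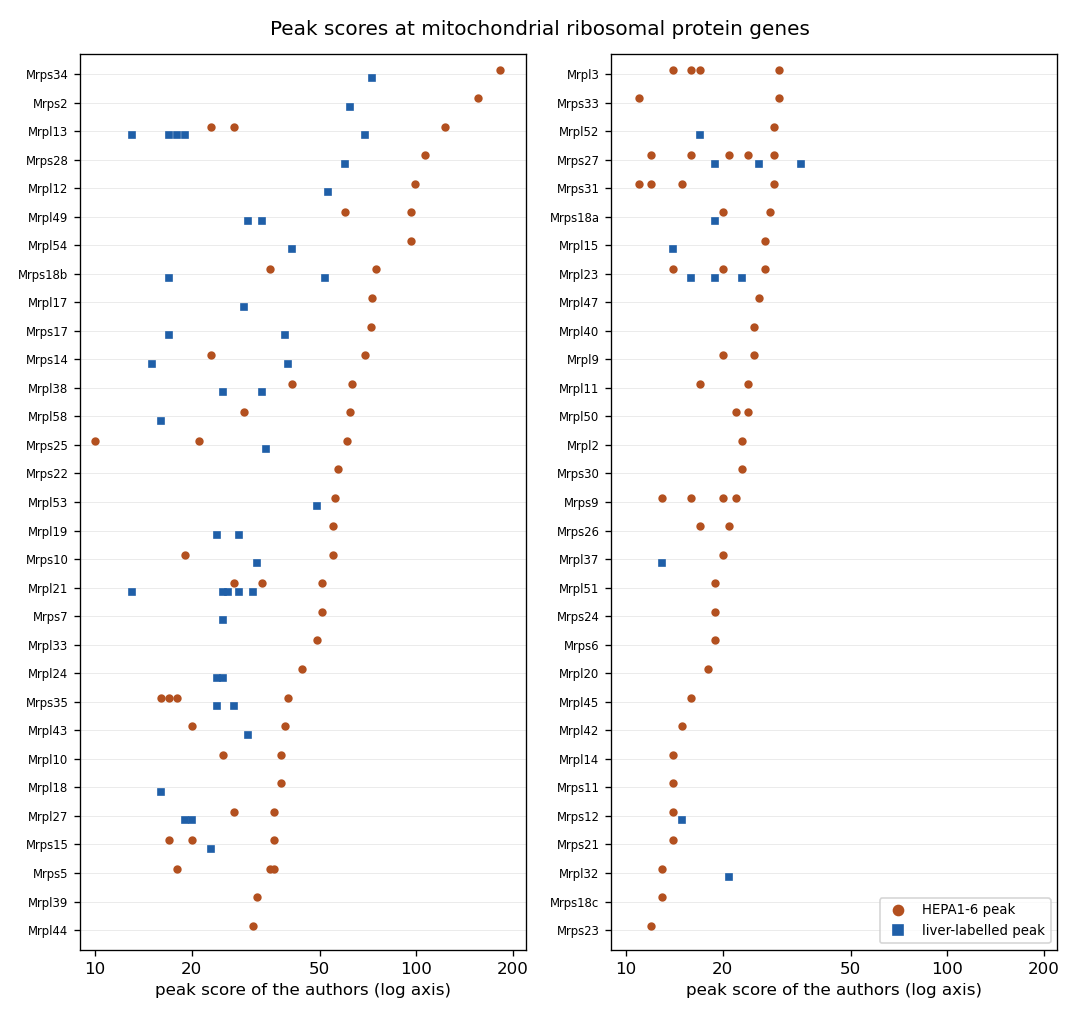
Authors' score of every peak (log axis) at the 62 members with a peak, 1 row per gene, in the HEPA1-6 list (brown) and the liver-labelled list (blue). Mrps34 stands highest in both lists with 182 and 73, and 29 members carry HEPA1-6 points only.

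Of the 29 members with a peak in HEPA1-6 only, Mrps22, a small-subunit protein found only in mitochondria, had the highest score, 57. It lay at the end of the gene, on the strand opposite to it. Mrpl33 (49), Mrpl10 (38), Mrps5 (36), Mrpl39 (32), Mrpl44 (31), Mrpl3 (30), Mrps33 (30), Mrps31 (29) and Mrpl47 (26) followed. Not all of these peaks can be assigned to the member. The Mrps22 peak also lay within 1 kb of another protein-coding gene. The Mrpl47 peak lay outside the gene body, over the neighbour Actl6a and on the opposite strand. The peaks that gave Mrpl33 and Mrpl3 these scores were on the opposite strand too. Mrpl44 has a fold like that of ribonuclease III, and Mrpl3 is a core protein with a bacterial counterpart. Mrpl10 had a peak of 1709 bp toward its end on its own strand and one of 386 bp past it on the other strand. Mrpl45, which lies at the exit tunnel by the inner membrane, had a single low HEPA1-6 peak (16). Mrps18c, one of the mouse homologues of bacterial S18, had one of 13, whereas its relative Mrps18a scored 28 and 19 and Mrps18b 75 and 52.

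The 16 members with no peak in either list were Mrpl1, Mrpl4, Mrpl16, Mrpl22, Mrpl28, Mrpl30, Mrpl34, Mrpl35, Mrpl36, Mrpl41, Mrpl46, Mrpl48, Mrpl55, Mrpl57, Mrps16 and Mrps36. They ranged from 828 to 62523 bp in length, with a median of 6065 bp. Mrpl22 encodes a protein of the exit tunnel. Mrps36 encodes a protein now counted as a part of the oxoglutarate dehydrogenase complex. Mrpl46 shares a divergent start with Mrps11, which held a single HEPA1-6 peak past its far end. The absence of a peak says that none was called at this unknown depth.

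Members with 3 or more peaks were mostly long or covered along their length. Mrps27 (70796 bp), a pentatricopeptide repeat protein, had 5 HEPA1-6 and 3 liver-labelled peaks, all on the strand of the gene. Mrpl3, Mrps9, Mrps31 and Mrps35 had 4 HEPA1-6 peaks each, and Mrps15, Mrps25, Mrps5, Mrpl13, Mrpl21 and Mrpl23 had 3. Mrpl21 (9841 bp) had 5 liver-labelled peaks, each overlapping one of its 3 HEPA1-6 peaks, and all on its own strand. Mrpl23, a protein of the exit tunnel whose gene lies near the imprinted H19 and Igf2 genes, had 3 peaks in each list, with highest scores of 27 and 23. More liver-labelled than HEPA1-6 peaks were found at Mrpl13, Mrpl19, Mrpl21, Mrpl24 and Mrps17. At Mrps17 a single HEPA1-6 peak of 2822 bp held both liver-labelled peaks, of 981 and 899 bp.

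Of the gene body with 1 kb on both sides, HEPA1-6 peaks covered a median of 26.9% at members with a peak, and liver-labelled peaks 19.0%. More than 50% was covered at 22 members by HEPA1-6 peaks and at 8 by liver-labelled ones. A single HEPA1-6 peak covered the whole gene at Mrpl12, Mrpl53, Mrpl54, Mrps7 and Mrps34, and a liver-labelled one at Mrpl12 and Mrps34. Coverage is not given here for all protein-coding genes. Members are shorter than most genes, so these values cannot be read as high or low for the lists. Of the HEPA1-6 peaks, 34.3% also lay within 1 kb of another protein-coding gene, and of the liver-labelled peaks 40.7%. Among all peaks at protein-coding genes these shares were 9.41% and 13.1%.

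Peaks at members were shared unequally. Of the 105 HEPA1-6 peaks, 46 overlapped a liver-labelled peak (43.8%, 34.7 to 53.4), against 31.8% of all HEPA1-6 peaks at protein-coding genes. Of the 54 liver-labelled peaks, 51 overlapped a HEPA1-6 peak (94.4%, 84.9 to 98.1), against 88.9%. The 3 that did not were 2 at Mrpl13 and 1 at Mrps12. HEPA1-6 peaks at members were wider than those at protein-coding genes (median 1561 bp against 1137 bp), and these shares were not split by width. Counted by gene the order was the other way. Of members with a HEPA1-6 peak 53.2% also held a liver-labelled one, against 66.1% of all protein-coding genes. An overlap of 50% of both peaks was reached by 16, a count not given here for all genes. Intervals were the same to the base at Mrpl13 and Mrpl58, whose protein frees stalled ribosomes. The Mrpl58 peak, chr11:115410472-115411789, was joined in HEPA1-6 by a peak at the start. At least 1 edge was the same to the base for 18 of the 46 HEPA1-6 peaks (39.1%, against 55.8% of such peaks at all protein-coding genes). At Mrps14, for example, chr1:160194956-160197215 in HEPA1-6 and chr1:160194956-160196078 in the liver-labelled list begin at the same base.

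The strand the authors gave to a peak was that of the gene in 72 of 91 pairs of a HEPA1-6 peak and a member with a listed strand (79.1%, all protein-coding genes 87.3%). In the liver-labelled list it was in 32 of 39 (82.1%, all protein-coding genes 83.8%). Where the peak touched no other protein-coding gene, 56 pairs had the same strand and 4 the opposite one in HEPA1-6, and 21 and 1 in the liver-labelled list. Where it also lay within 1 kb of another protein-coding gene, the numbers were 16 and 15 for HEPA1-6 peaks and 11 and 6 for liver-labelled peaks. Opposite strands were thus found mainly at peaks that members share with a neighbour.

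Among the 33 members with a peak in both lists, overlapping peaks carried opposite strands at 10: Mrpl13, Mrpl17, Mrpl18, Mrpl19, Mrpl27, Mrpl43, Mrpl49, Mrps2, Mrps14 and Mrps18b. How often this occurs over all protein-coding genes is not given here, so it cannot be called particular to members. At Mrpl17 the HEPA1-6 peak, chr7:105808359-105810708, carried the strand of the gene and the liver-labelled peak, chr7:105809879-105810708, the opposite one, although both end at the same base. At Mrpl49, which has a divergent start with the cytosolic ribosomal protein gene Fau, 2 broad peaks in each list had reversed strands between the lists. At Mrps18b, which has a divergent start with Ppp1r10, the start peak had the strand of Mrps18b in the liver-labelled list and the opposite one in HEPA1-6. How a strand was assigned to a peak is not given in the sources used here.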

How the data were processed

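The files were 1 list of peak intervals per source with a name, score and strand. The score per peak was deposited by the authors, with no scale stated in the lists, and was used only to describe and rank peaks within a list. The submitters' processing notes name CASAVA 1.8.2, cutadapt, Bowtie2, SAMtools, bedtools, MACS2 and build mm10, with no role or order. Coordinates were made 1-based and laid over RefSeq GRCm38.p6 gene boundaries, with starts and strands from the RefSeq promoter table. Counts used Python 3.11.15, pandas 2.3.3, numpy 2.4.6 and scipy 1.17.1 (Wilson intervals), and overlap functions were tested on simulated data. The RNase H1 libraries and single libraries were not analysed here.

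Named members were the 10 highest scores per list and in HEPA1-6 only, and those with 3 or more peaks. Also named were members with opposite strands, with no peak, and some by role. Members with a liver-labelled peak only were to be named too, but there were 0. Members, lists and rules were chosen with earlier results of these data known. Alternatives changed the flank, window, overlap, score cut, strand and neighbours.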

Additional observations from a re-analysis of the deposited data

How the results depend on the processing

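Of 47 alternatives to 9 results, 10 moved, by over 1.5 times for a count of genes or out of the reported interval for a share of peaks, and 37 did not. With peaks at no other protein-coding gene, 38 members held a HEPA1-6 peak (48.7% against 32.1% of all genes), 18 a liver-labelled one (23.1% against 22.0%) and 15 both (19.2% against 18.7%). With peaks on the strand of the gene (69 members), 20 held a liver-labelled peak (29.0% against 25.3%) and 18 both (26.1% against 21.9%). Among genes with no other protein-coding gene within 1 kb, an alternative chosen after seeing the data, the counts were 25 of 31 members in HEPA1-6 and 10 of 31 in the other list; these counts moved because fewer genes were used, and their shares, 80.6% and 32.3%, lie within the intervals over all members. In the higher-scoring 50% of the liver-labelled list, 9 members had a peak at the gene end (13.0% against 7.92%). An overlap of 50% of both peaks left 15.2% of HEPA1-6 and 29.6% of liver-labelled peaks shared. The members' share was above that of all protein-coding genes in all 48 settings that count genes, by least for peaks in both lists at no other gene. Using the 5′ gene boundary as the start, also chosen after seeing the data, left 25 and 15 start peaks. With the HEPA1-6 list shortened to the length of the other, 48 members held a HEPA1-6 peak (61.5% against 34.0%). In that setting 30 held both (38.5% against 26.0%) and 3 a liver-labelled peak only (against 3.67% of all genes). The nesting of liver-labelled members in the HEPA1-6 ones was also lost by midpoint (6 members, against 2.93% of all genes). It was lost too with peaks at no other gene (3 of 78, against 3.33%). With peaks on the strand of the gene the count was 2 of 69 (against 3.34%). The counts of 3 and 2 are near the shares of all genes.

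No paired analysis was possible because each source has 1 merged list, so replicate numbers reach no value, and leaving out a replicate could not be run. Depth is unknown, and a deeper library gives more peaks.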
